A study of Mus musculus with 6 samples.

Results

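The genes described here encode the basic leucine zipper (bZIP) transcription factors, 50 genes taken from a fixed list of the family that includes Atf4 itself, its known dimer partners and the related factors. ATF4 binding at them was read from 4 annotated ChIP-seq peak lists as the peaks that name 1 of these genes as nearest, at any distance from its transcription start site (TSS), and peaks with the center within 5 kb of the TSS were set apart. The 4 lists hold 17462 peaks that name 8863 genes, and 84 of these peaks name a bZIP gene. A peak was listed for 31 of the 50 genes, within 5 kb of the TSS for 16 of them and only farther away for 15, and 19 genes had none. These counts pool the 4 lists. The share of all genes pooled in the same way is not given, so they cannot be read as high or low. Shares for single lists are given below.

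The cells were primary mouse embryonic fibroblasts (MEFs) of strain 129S6/SvEvTac. WT MEFs carried the Wild-type genotype, and GCN2 KO MEFs were GCN2-/- and lack the kinase that senses uncharged tRNA. Both were kept for 24 h either in complete DMEM (+Leu) or in DMEM from which leucine was left out (-Leu), and ATF4 was precipitated with the same antibody in all 4 conditions. Each condition is 1 library from pooled chromatin, so no value below has a replicate error, conditions were not tested against each other and no p-value is printed.

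ATF4 is the transcription factor whose translation increases when GCN2 or another kinase phosphorylates eIF2α, the event at the center of the integrated stress response. Like other bZIP proteins it contacts DNA with a basic helix and pairs with another bZIP protein through its leucine zipper, and the pair sets the sequence that is bound. With members of the C/EBP family it binds C/EBP-ATF composite elements such as TGATGCAA, whose ends fit ATF and C/EBP proteins. Several bZIP genes are themselves known ATF4 targets, so the factor can change the supply of its own partners.

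The WT lists held 4850 (+Leu) and 6374 (-Leu) peaks and the GCN2 KO lists 3566 and 2672. Each peak is the summit ±150 bp and has a whole-number score of 13 or more, with a median of 29 to 30 in every list. The scale of the score is not stated, the lists give no sequencing depth, and the -Leu lists were called against input DNA of leucine-fed cells of the same genotype. A score ratio between lists therefore describes the lists, in which depth and binding cannot be told apart. With the scale unknown, it cannot be read as a fold difference in ATF4 binding. Intervals on shares are 95% Wilson intervals, which cover counting error only.

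The sequences below show where ATF4 peaks at bZIP genes contained TGATGCAA within 50 bp of the peak center, which was the case at 10 sites, 9 of which are printed. Each is given 5′ to 3′ on the strand that reads TGATGCAA, from the mm10 (GRCm38) reference, with the motif in capitals. Where GCAA, the last 4 bases of the motif, came again 6 bases after it, that copy is in capitals too. The order is that of the highest score in any list.
Atf5, chr7:44819081-44819140, minus strand: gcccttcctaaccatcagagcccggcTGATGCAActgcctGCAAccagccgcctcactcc
Creb3l1, chr2:92055577-92055636, minus strand: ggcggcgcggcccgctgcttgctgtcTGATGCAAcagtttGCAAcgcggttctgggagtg
Nfe2l2, chr2:75685658-75685717, plus strand: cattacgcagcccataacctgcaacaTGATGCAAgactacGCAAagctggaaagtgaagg
Nfe2l1, chr11:96822742-96822801, minus strand: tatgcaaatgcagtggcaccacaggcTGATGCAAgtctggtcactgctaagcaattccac
Ddit3, chr10:127290466-127290525, minus strand: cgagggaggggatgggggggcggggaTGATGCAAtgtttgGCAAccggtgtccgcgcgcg
Nfil3, chr13:52976868-52976927, minus strand: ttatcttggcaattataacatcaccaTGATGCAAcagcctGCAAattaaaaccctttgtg
Jdp2, chr12:85599372-85599401, plus strand: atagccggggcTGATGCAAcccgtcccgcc
Cebpd, chr16:15878422-15878481, minus strand: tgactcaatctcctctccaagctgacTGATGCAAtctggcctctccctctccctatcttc
Atf3, chr1:191183255-191183284, minus strand: tttaaaaggggTGATGCAAcgcgctcccag

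bZIP genes were bound near the TSS more often than protein-coding genes as a whole in each of the 4 lists. In leucine-fed WT MEFs 9 of the 50 (18%) had such a peak, beside 3.03% of the 21896 protein-coding genes of the reference, and in leucine-deprived WT MEFs 10 (20%) had one, beside 4.4%. In GCN2 KO MEFs 5 members (10%) had one with leucine, beside 2.27%, and 5 (10%) without it, beside 1.61%. Many of the GCN2 KO peaks were weak. With scores of 30 or more, 3 (+Leu) and 1 (-Leu) members remained in GCN2 KO, and 8 in each WT list. The share of all genes at that limit is not given. At any distance, WT peaks named 18 members with leucine (36%, beside 14.6% of all genes) and 20 without it (40%, beside 18.3%), and GCN2 KO peaks named 12 (24%, beside 11.1%) and 13 (26%, beside 8.56%). The WT lists held 29 (+Leu) and 26 (-Leu) member peaks and the GCN2 KO lists 14 and 15.

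**Figure D1:**
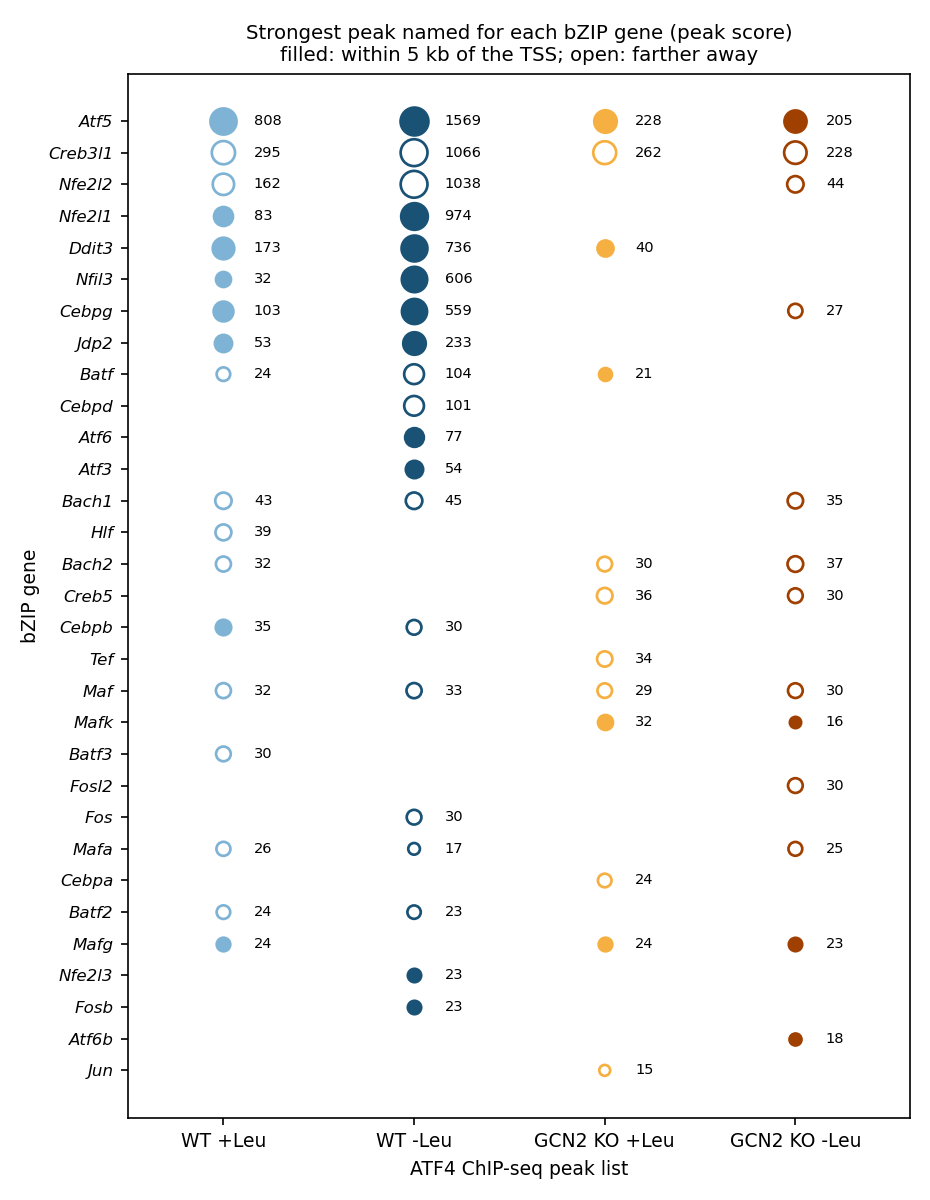
Score of the strongest peak named for each of the 31 bZIP genes with a peak (rows) in each of the 4 lists (columns). Point size grows with the logarithm of the score, filled points lie within 5 kb of the TSS and open points farther away; the 8 genes at the top reach 233 or more in WT -Leu, and for Cebpg in GCN2 KO -Leu the weaker peak of 20 at the intronic site is not drawn.

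Strong peaks made up a larger share of the member peaks than of all peaks in each list. Scores of at least 100 were reached by 5 of 29 member peaks in WT +Leu (17.2%, beside 1.86% of all peaks in that list) and by 10 of 26 in WT -Leu (38.5%, beside 9.82%). In GCN2 KO MEFs they were reached by 2 of 14 with leucine (14.3%, beside 0.897%) and 2 of 15 without it (13.3%, beside 0.487%). The median over member peaks was 32 (+Leu) and 49 (-Leu) in WT and 29 (+Leu) and 30 (-Leu) in GCN2 KO MEFs. In the GCN2 KO lists it was thus at the median of all peaks, and only the peaks at Atf5 and Creb3l1 reached 100.

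Member peaks also held the C/EBP-ATF composite element more often than other peaks. TGATGCAA, on either strand and within 50 bp of the center, was present in 8 of 29 member peaks of WT +Leu (27.6%, 14.7 to 45.7, beside 2.71% of all peaks) and in 10 of 26 of WT -Leu (38.5%, 22.4 to 57.5, beside 6.95%). In GCN2 KO MEFs it was present in 3 of 14 with leucine (21.4%, 7.57 to 47.6, beside 1.07%) and in 3 of 15 without it (20%, 7.05 to 45.2, beside 1.09%). The palindromes TGACGTCA, bound by CREB and ATF dimers, and TTGCGCAA, bound by C/EBP dimers, were in none of the member peaks within that distance, with upper limits of 11.7% to 21.5% by list. They were rare in general, in at most 0.141% of all peaks of a list. The AP-1 element, TGACTCA or TGAGTCA, which FOS-JUN dimers bind, was near the center of 0 of 29 member peaks in WT +Leu, beside 2.13% of all peaks. In GCN2 KO -Leu it was in 0 of 15, beside 1.96%. It was in 3 of 26 in WT -Leu (11.5%, 4.0 to 29.0, beside 3.36%). In GCN2 KO +Leu it was in 1 of 14 (7.14%, 1.27 to 31.5, beside 1.69%). These were the peaks of Cebpd, Nfil3 (the intronic site) and Maf in WT -Leu and that of Jun in GCN2 KO +Leu.

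The motif marked the sites that came back in more than 1 list. Peaks with centers 300 bp or less apart were joined into sites, which gave 67 sites at bZIP genes. Of these, 58 were in 1 list only, and 2 of the 58 (3.45%) held the motif, beside 2.05% of all single-list sites. The other 9 sites (13.4%, beside 2.87% of all sites) were in at least 2 lists, and 8 of them (88.9%, beside 29.5% of the 482 such sites in all) held it. All 5 sites found in at least 3 lists held the motif, whereas 52.4% of the 82 such sites in all did. Sites in all 4 lists numbered 2 at bZIP genes and 28 in all.

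Peaks common to the lists of a genotype were counted separately. Of the WT +Leu member peaks, 8 of 29 (27.6%) had a partner in the -Leu list at 300 bp or less, beside 6.35% of all WT +Leu peaks. In GCN2 KO MEFs, 3 of 14 (21.4%) had such a partner, beside 2.75% of all.

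**Figure D2:**
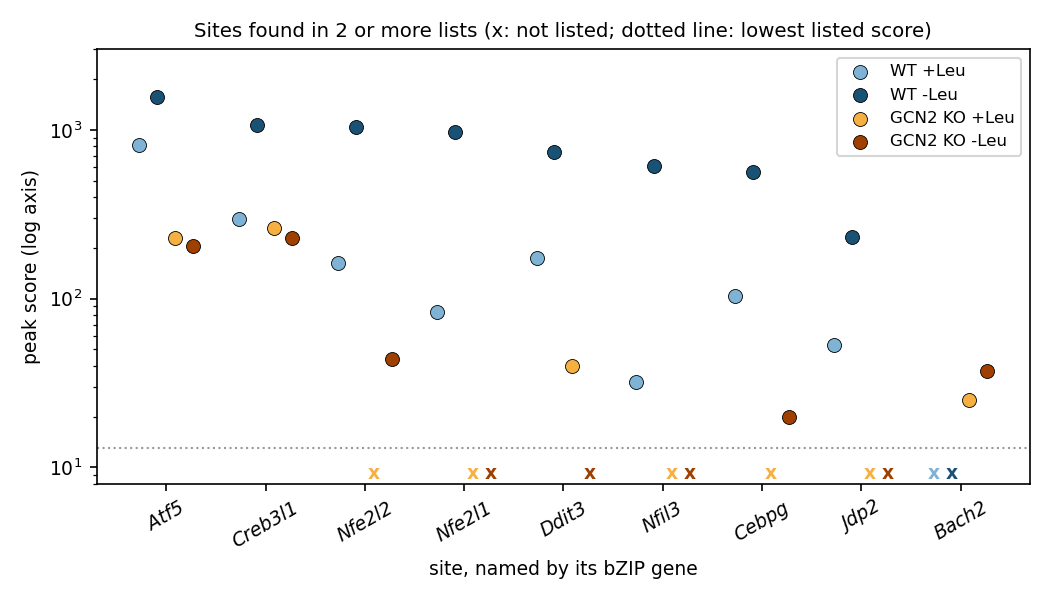
Peak score (log axis) in each list at the 9 sites of bZIP genes that were found in at least 2 lists; a cross marks a list without a peak at the site, and the dotted line is the lowest listed score, 13. The 8 sites from Atf5 to Jdp2 are highest in WT -Leu, and the Bach2 site is the 1 that was listed in GCN2 KO MEFs only.

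No peak in any list named Atf4. The nearest listed peak to its start lay 7.72 kb away, was named for Rps19bp1, was found in WT +Leu alone with a score of 21, and held no TGATGNAA (any base at position 6). The next was 27.7 kb away in WT -Leu with a score of 38. Within these lists there was thus no peak near the factor's own gene in either medium or genotype.

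Atf5, the closest relative of Atf4 and likewise a factor of the amino acid response, carried the highest score of the family in WT MEFs in both media. Its site lay 2.44 to 2.46 kb upstream of the TSS, inside an intron of the overlapping genes Nup62 and Il4i1b. The score was 808 with leucine and 1569 without it in WT, and 228 and 205 in GCN2 KO MEFs. These were ranks 4, 9, 7 and 5 of their lists, so Atf5 was among the strongest peaks everywhere although its score differed. WT exceeded GCN2 KO by a ratio of 3.54 with leucine and 7.65 without. The peak center was never more than 11 bp from the motif. An additional GCN2 KO -Leu peak, 29.7 kb downstream of the TSS with a score of 30, held no motif.

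Among the C/EBP genes, which encode ATF4's best known partners, Ddit3 and Cebpg had recurrent sites. Ddit3 encodes CHOP, a C/EBP protein of the stress response that inhibits or redirects its partners. The Ddit3 promoter site, 288 to 320 bp upstream of the TSS, scored 173 in WT +Leu, 736 in WT -Leu and 40 in GCN2 KO +Leu, and was not listed in GCN2 KO -Leu. Its leucine-fed score was 4.33 times higher in WT than in GCN2 KO. The nearest start in the RefSeq annotation was not that of Ddit3 but that of its neighbor Mbd6, 142 to 174 bp away, so the peak cannot be assigned to either gene by distance. A further WT -Leu peak, with a score of 28, lay 776 bp inside the gene and held no motif.

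Cebpg encodes C/EBPγ, a small C/EBP protein without a transactivation domain that pairs with ATF4. Its intronic site, 324 to 364 bp downstream of the TSS, scored 103 in WT +Leu, 559 in WT -Leu and 20 in GCN2 KO -Leu, and had no peak in GCN2 KO +Leu. The WT -Leu score was 27.9 times that in GCN2 KO -Leu. The center was 6 bp from the motif in WT -Leu, 31 bp in WT +Leu and 46 bp in GCN2 KO -Leu, farther the lower the score. The antisense gene Gm45095 overlaps the site. Cebpg had other peaks with no motif, at 37.5 kb in WT +Leu with a score of 37 and at 5993 bp in GCN2 KO -Leu with a score of 27.

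The remaining C/EBP genes had weaker or single peaks. Cebpd, which encodes C/EBPδ, was bound in WT -Leu alone, 8.83 kb upstream of the TSS, with a score of 101 and the motif 7 bp from the center. Cebpb, which encodes C/EBPβ, had a promoter peak of 35 in WT +Leu 424 bp upstream of the TSS, without the motif, and a WT -Leu peak of 30 that lay 12.5 kb upstream. Another WT -Leu peak close to Cebpb was named for its neighbor A530013C23Rik. It scored 46, held the motif and lay 1187 bp from a RefSeq start of Cebpb, so a count by RefSeq starts adds Cebpb to the WT -Leu genes. Cebpa, the liver and fat cell factor, had a single peak of 24 in GCN2 KO +Leu at 11.4 kb, and Cebpe had none.

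Over the 9 genes taken as known ATF4 dimer partners (the 6 C/EBP genes with Ddit3, and Jun, Fos and Nfe2l2), 3 were bound within 5 kb in WT +Leu, 2 in WT -Leu and 1 in each GCN2 KO list, beside 3.03%, 4.4%, 2.27% and 1.61% of all genes. At any distance the numbers were 4, 6, 3 and 2, beside 14.6%, 18.3%, 11.1% and 8.56% of all genes. With 9 genes, a difference of 1 or 2 between lists cannot be read as a change.

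Atf3 and Jdp2 encode factors that repress AP-1 and CRE elements, and both were bound at the TSS itself in WT MEFs only. The Jdp2 peak, centered 15 and 28 bp upstream of the TSS, scored 53 in WT +Leu and 233 in WT -Leu. The Atf3 peak, 24 bp downstream of the TSS, was listed in WT -Leu alone with a score of 54. It contained TGATGCAA at 40 bp from the center and again at 130 bp, close to the edge of the window. Neither gene had a peak in a GCN2 KO list. Among the 40 members with a RefSeq promoter sequence, 250 bases before to 50 after the start, only Atf3 and Jdp2 held TGATGCAA in it. This was 2 of 40 (5.0%), beside 1.03% of 27025 genes. The motif of the Ddit3 site lies farther upstream than this window reaches. Jdp2 had 4 further WT +Leu peaks 13.9 to 51.5 kb away with scores of 19 to 26, none of them with TGATGCAA and none in another list.

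The AP-1 genes themselves had only weak peaks, with scores of at most 30. By list, 0 to 2 of the 4 FOS genes and 0 or 1 of the 3 JUN genes were named at any distance. The share of all genes was 8.56% to 18.3%, and these groups are too small to call their counts low. Of the FOS genes, which encode the partners of JUN, Fosb had a WT -Leu peak of 23 in intron 1 at 2.34 kb, Fos a WT -Leu peak of 30 at 37.4 kb upstream, Fosl2 a GCN2 KO -Leu peak of 30 at 35.9 kb upstream, and Fosl1 none. Of the JUN genes, Jun had a GCN2 KO +Leu peak of 15 centered 99952 bp upstream, among the weakest of its list, and Junb and Jund had none. No site of these genes was found in a second list or held TGATGCAA. The BATF genes, whose products pair with JUN proteins and are best known from immune cells, differed by list as well. Batf had 24 in WT +Leu at 7.79 kb upstream, 104 and 85 in WT -Leu at 42.8 kb upstream and 19.0 kb downstream, and 21 in GCN2 KO +Leu at 2.38 kb upstream. Batf2 had peaks of 24 and 23 in WT +Leu and WT -Leu at 9.27 and 9.76 kb upstream, more than 300 bp apart. Batf3 had peaks of 30 and 19 in WT +Leu at 9.76 and 9.3 kb upstream.

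**Figure D3:**
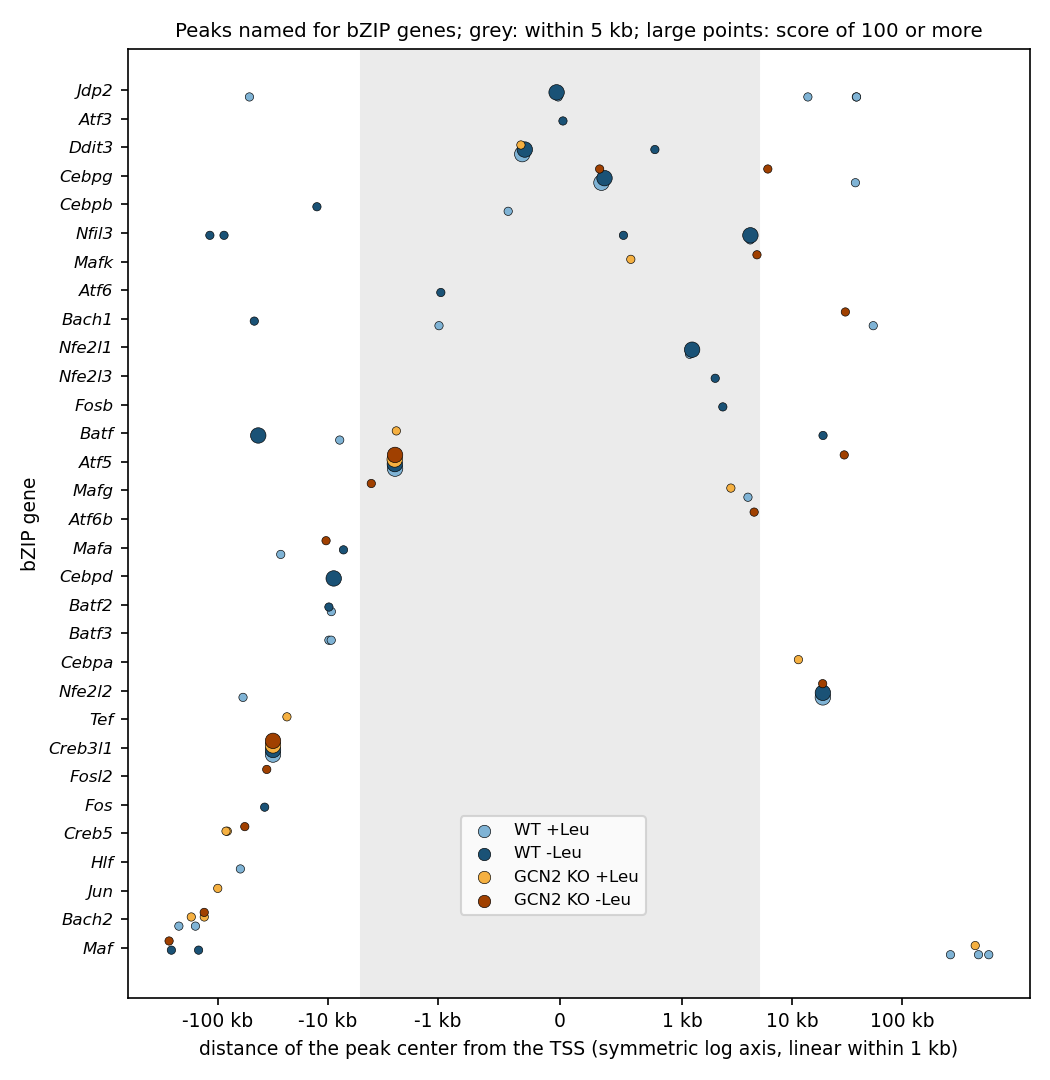
Signed distance of the 84 peaks named for bZIP genes from the TSS, on a symmetric logarithmic axis that is linear within 1 kb, by gene (rows) and list (color); grey marks 5 kb on either side, and large points score 100 or more. Stacked points at Atf5, Ddit3, Cebpg, Nfil3, Nfe2l1, Nfe2l2, Creb3l1 and Jdp2 are sites shared between lists, while the points of Maf, Bach1, Mafg and Mafk lie apart.

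Of the genes of the CREB and ATF2 groups, which encode the factors of cAMP and stress kinase signaling, only Creb5 was named by a peak. By list, 8.56% to 18.3% of all genes were named at any distance. With 3 genes in each group, the count cannot be read as a lack of peaks. Creb1, Crem and Atf1 had none, nor did Atf2 and Atf7. Creb5 was named by GCN2 KO peaks only, with scores of 36 and 24 with leucine at 81.8 and 84.1 kb upstream, and 30 without it at 56.8 kb. Its peaks lay inside longer RefSeq transcripts of Creb5 and held no motif.

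Among the genes of endoplasmic reticulum stress and the related membrane-bound factors, Creb3l1 stood apart. It encodes OASIS, a factor cleaved from the membrane that is known from bone and secretory cells. Its site was intergenic, 31.4 kb upstream of the TSS, and scored 295 (+Leu) and 1066 (-Leu) in WT and 262 (+Leu) and 228 (-Leu) in GCN2 KO MEFs. These were ranks 19, 23, 5 and 2, so that in both GCN2 KO lists it exceeded the Atf5 peak. With leucine the WT score was 1.13 times that of GCN2 KO, and without it 4.68 times. The motif was 3 to 11 bp from the center in all 4 lists. At this distance the peak cannot be assigned to Creb3l1, and the RefSeq start nearest to it, 13747 to 13761 bp away, was that of Gm31473.

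Other genes of this group had no recurrent site. Atf6, the sensor that is cleaved in the Golgi, had a promoter peak in WT -Leu, 975 bp upstream with a score of 77 and without TGATGNAA. Its relative Atf6b had a GCN2 KO -Leu peak in exon 10 at 4501 bp with a score of 18. Xbp1, the factor spliced by IRE1, had no peak, and neither did Creb3, Creb3l2, Creb3l3 and Creb3l4. Crebzf, which encodes an inhibitory bZIP protein, had none either.

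Of the cap'n'collar (CNC) genes, which encode factors of the antioxidant and proteasome responses, Nfe2l2 and Nfe2l1 had strong sites in WT that were weak or unlisted in GCN2 KO MEFs. Nfe2l2 encodes NRF2, the main factor of the oxidative stress response and a partner of ATF4. Its site, in intron 1 at 18.9 to 19.0 kb, scored 162 in WT +Leu, 1038 in WT -Leu and 44 in GCN2 KO -Leu, and had no peak in GCN2 KO +Leu. The ratio of WT to GCN2 KO without leucine was 23.6. In the 2 WT lists the motif was 2 and 16 bp from the center, and in GCN2 KO -Leu it was 66 bp away and thus outside the 50 bp limit. A WT +Leu peak 58.9 kb upstream scored 35.

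Nfe2l1 encodes NRF1, the membrane-bound factor that raises proteasome gene expression. Its site in intron 2, 1.17 to 1.23 kb from the TSS, scored 83 in WT +Leu and 974 in WT -Leu and had no peak in GCN2 KO MEFs. It contains 2 copies of TGATGCAA in opposite directions with starts 82 bp apart, shown here on the plus strand with both in capitals (TTGCATCA is TGATGCAA on the other strand).
Nfe2l1 motif pair, chr11:96822760-96822865, plus strand: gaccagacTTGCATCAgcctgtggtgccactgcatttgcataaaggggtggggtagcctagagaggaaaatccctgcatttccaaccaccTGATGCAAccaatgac
In WT -Leu the center was 13 bp from the left copy and 69 bp from the right one. In WT +Leu it was 76 bp from the left copy and 6 bp from the right one, so the listed summit lay beside a different copy in each list. The WT +Leu peak was much the weaker (83, beside 974). With 1 library per medium, whether the summit depends on the medium was not tested.

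Nfe2l3, the least studied relative, had a WT -Leu peak of 23 in intron 1 at 1.99 kb, and Nfe2, the factor of blood cells, had none. The repressor genes Bach1 and Bach2, whose products compete with NRF2 for MAF partners, had many peaks but no motif. Bach1 had 2 peaks in WT +Leu, of 36 in the promoter at -0.99 kb and of 43 at 54.4 kb. It had 1 peak of 45 in WT -Leu at 46.5 kb upstream and 1 of 35 in GCN2 KO -Leu at 30.4 kb, each at a different place. Bach2 was named by peaks 133 to 226 kb upstream of the TSS. The 1 site of Bach2 that recurred was listed in both GCN2 KO lists with scores of 25 (+Leu) and 37 (-Leu). In the same order it lay 552 and 402 bp from the start of a predicted RefSeq transcript of Bach2.

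The MAF genes showed the opposite of a recurrent site. Mafg, which encodes a small MAF partner of the CNC factors, had a peak within 5 kb in 3 lists, with a score of 24 in leucine-fed WT MEFs and scores of 24 (+Leu) and 23 (-Leu) in GCN2 KO MEFs. These lay at 3.95 kb in the last exon, 2.77 kb in intron 1 and 4.02 kb upstream, so no place was shared. Mafk, which encodes another small MAF protein, had 32 at 579 bp in GCN2 KO +Leu and 16 at 4775 bp in GCN2 KO -Leu. Maf was named by 7 peaks, all of them at least 149 kb away and with scores of 23 to 33. Mafa had peaks of 26, 17 and 25 at 26.8, 7.19 and 10.4 kb upstream in WT +Leu, WT -Leu and GCN2 KO -Leu, all inside Zc3h3, and Maff had none. None of the MAF peaks held TGATGCAA within 50 bp.

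Of the PAR factors and their antagonist, which bind clock output genes, Nfil3 had the largest difference in rank between the media among the 8 sites shared by the WT lists. Nfil3 encodes a repressor also known as E4BP4. Its site in intron 1, 4.15 to 4.16 kb from the TSS, scored 32 in WT +Leu and 606 in WT -Leu, which were ranks 1569 and 67. A RefSeq start of Nfil3 lies 3300 to 3316 bp from it. Other Nfil3 peaks in WT -Leu scored 45 at 519 bp and 33 and 30 at 118 and 87.7 kb upstream, without the motif. Hlf had a WT +Leu peak of 39 at 62.2 kb upstream, Tef a GCN2 KO +Leu peak of 34 at 23.5 kb upstream inside Zc3h7b, and Dbp none.

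The 5 kb limit fell between close values in a few cases. Just inside were the peaks of Nfil3 at 4162 bp, Atf6b at 4501 bp and Mafk at 4775 bp, and just outside those of Cebpg in GCN2 KO -Leu at 5993 bp, Mafa at 7194 bp and Batf at 7787 bp. Some members are neighbors, so that a peak between them could name either: Fos, Jdp2 and Batf follow each other on chromosome 12 with gaps of 121 and 46.8 kb, and Atf3 and Batf3 are 61.4 kb apart on chromosome 1. Cebpa and Cebpg are 62.7 kb apart on chromosome 7. For the 19 members without a peak, the nearest listed peak of any list was 7.72 to 295 kb from a start of the gene (median 31.0 kb).

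In WT MEFs, all 6 members with a peak within 5 kb in both media had the higher score without leucine. The ratio of the -Leu to the +Leu score was 1.94 for Atf5, 4.25 for Ddit3, 4.4 for Jdp2, 5.43 for Cebpg, 11.7 for Nfe2l1 and 18.9 for Nfil3, with a median of 4.91. Over all 157 genes with such peaks 79.6% were higher and the median was 2.13. At shared sites of any distance, 8 of 8 were higher with the same median, beside 81.8% and 2.36 over all 308. The 2 distal sites among them had ratios of 3.61 (Creb3l1) and 6.41 (Nfe2l2). By percentile rank within its list, which does not depend on the scale of the scores, the median ratio was 1.01, and 5 of 6 were higher, beside 0.999 and 47.1% over the 157 genes. Only Nfil3, at the 67.7th percentile with leucine and above the 98th without it, moved by more than 5 percentile points, since the other 5 were already above the 93rd in WT +Leu.

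In GCN2 KO MEFs, 3 members had a peak within 5 kb in both media, and none had the higher score without leucine. The ratios were 0.899 for Atf5, 0.958 for Mafg and 0.5 for Mafk, and only for Atf5 were the peaks at the same place. Of all 49 genes with such peaks 28.6% were higher, with a median of 0.857. By percentile rank 1 of the 3 members was higher without leucine, Atf5 (99.8 to 99.9), beside 38.8% of the 49 genes. At the 3 shared sites of any distance the ratios were 0.899 (Atf5), 0.87 (Creb3l1) and 1.48 (Bach2), beside a median of 1.0 over 98. By percentile rank all 3 sites were higher without leucine, beside 54.1% of the 98, so the direction depends on the measure. Whether the response to leucine differed between the genotypes was not tested, since there was 1 library of each kind.

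The motif lay close to the summit in every strong peak that held it. In those that scored at least 100 it was at most 31 bp from the center, counting the nearer copy at Nfe2l1. The larger offsets were in weaker peaks, with 66 bp in Nfe2l2 and 46 bp in Cebpg in GCN2 KO -Leu and 40 bp in Atf3 in WT -Leu. Of the 9 motifs printed in the list of sites, the base that followed was C at 5, G at 2, T at 2 and A at 0.

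**Figure D4:**
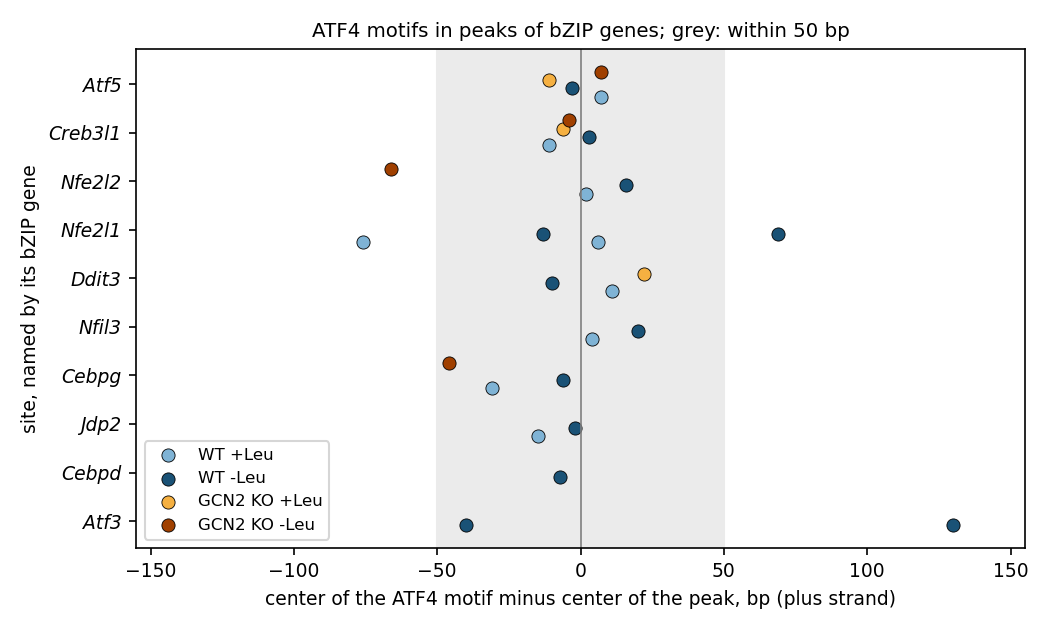
Distance in bp from the peak center (0) to the center of each TGATGCAA in the peak, on the plus strand, for the 10 bZIP sites with the motif (rows) and by list (color); grey marks 50 bp on either side. Points of Nfe2l1 and Atf3 outside the grey band are their additional copies, and the point of Nfe2l2 at -66 bp is the GCN2 KO -Leu peak.

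The printed sequences shared a feature outside the motif, which was noticed only after they had been read. GCAA followed 6 bases after TGATGCAA at 5 of these 9 sites (Atf5, Creb3l1, Nfe2l2, Ddit3 and Nfil3). To see how far this held in general, GCAA was sought at every distance up to 25 bases on either side of all 490 motifs that lay within 50 bp of a peak center. It followed after 6 bases at 42 of them (8.57%, 6.4 to 11.4) and after 7 bases at 13 (2.65%). At the other 50 distances the number ranged from 0 to 9, with a median of 2. Of the 87106 TGATGCAA in the reference chromosomes, 0.481% had GCAA after 6 bases and 0.37% after 7.

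Counted by motif, the spacing of 6 was found at 5 of the 11 motifs at bZIP genes and, without these genes, at 37 of 479 (7.72%). It was more frequent in strong peaks. Where the best score was 500 or more, 16 of 54 motifs (29.6%, 19.1 to 42.8) had it, beside 14 of 193 (7.25%, 4.37 to 11.8) with a score from 100 to below 500 and 12 of 243 (4.94%, 2.85 to 8.43) below 100. The median best score was 261 with the copy and 94 without. The 42 sequences of 18 bases were all different, and 1 of them lay in a masked repeat. As the pattern was found in these same peaks, the numbers describe them and are no independent test.

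**Figure D5:**
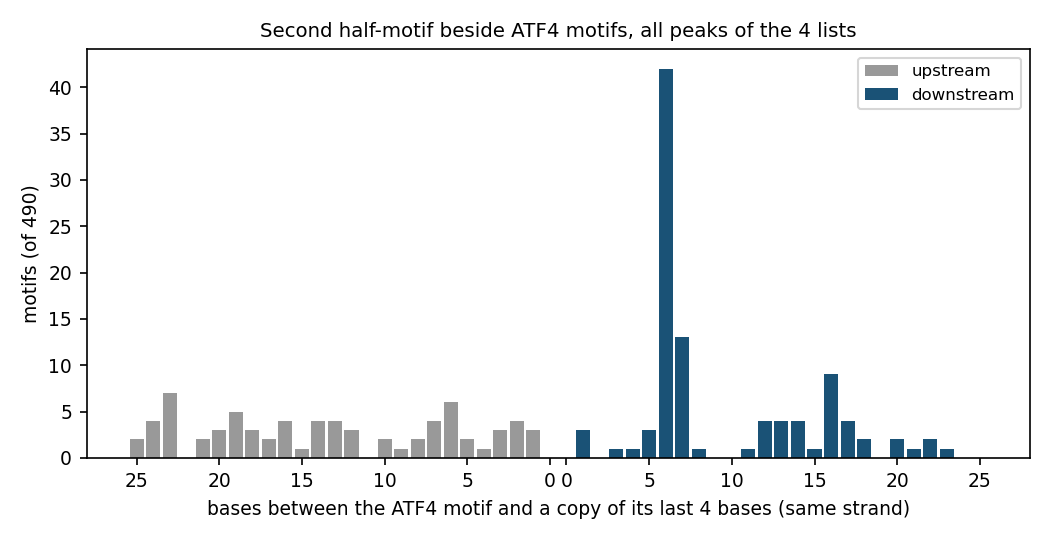
Number of the 490 TGATGCAA motifs near peak centers (vertical axis) that have a copy of the motif's last 4 bases on the same strand, by the number of bases between them (horizontal axis), upstream in grey and downstream in blue. The count is 42 at 6 bases downstream and 13 at 7, and at most 9 at any other distance.

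For comparison, the other genes of the integrated stress response were counted from a list of 23 that holds kinases, eIF2 and eIF2B subunits, phosphatase subunits and effectors. That list includes Chac1 and Ppp1r15a, which the paper names as known ATF4 targets, so its counts are no independent measure of binding to the pathway. A peak within 5 kb was present for 13 of the 23 in at least 1 list, a pooled count without a pooled share of all genes beside it. Apart from effectors and phosphatase subunits, only Eif2ak1 (30 in WT +Leu) and Eif2b1 (57 in WT -Leu, 40 in GCN2 KO +Leu) had one. By list, the genes with such a peak numbered 11 (+Leu) and 12 (-Leu) in WT and 7 (+Leu) and 2 (-Leu) in GCN2 KO MEFs. The shares of all genes were 3.03%, 4.4%, 2.27% and 1.61%. Both of the last, Chac1 (glutathione degradation) and Ppp1r15b (the constitutive eIF2α phosphatase subunit), were bound in all 4 lists. In the same order Chac1 scored 1499, 2515, 391 and 184, and Ppp1r15b scored 144, 372, 140 and 66. Trib3 (a pseudokinase that binds ATF4), Nupr1, Eif4ebp1 (the translation repressor 4E-BP1) and Vldlr were bound in 3 lists and had no peak within 5 kb in GCN2 KO -Leu. Among bZIP genes, Atf5 alone had a peak within 5 kb in all 4 lists.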

How the data were processed

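ATF4 ChIP-seq of 4 conditions was analysed, and the 2 input libraries were not analysed here. Per the labels and the study's methods, reads were aligned to mm10 with BWA 0.7.12, peaks were called with MACS2 2.1.0 against input DNA with a false discovery rate limit of 0.05, and the summit ±150 bp was annotated with HOMER 4.7. The authors deposited for each peak a score, how far it lies from the TSS of the gene it names (in bp), and the fraction of its bases that are G or C or in CpG. Lists were called separately, so scores are not normalized between them. The listed GC content equalled that of the reference for every peak on assembled chromosomes.

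Peaks were assigned by the gene name in the lists. Common peaks had centers 300 bp or less apart. Background genes were the protein-coding genes of RefSeq (GRCm38), from which promoters and sequences were also taken. The sequence of 1 site is not reported here. All 50 genes are named: those within 5 kb with values in each list, the others by distance and score. Members, lists and tests were chosen with earlier results of these data known. Alternatives were a score of 30 or more, the 2672 strongest peaks of each list, TSS limits of 1 and 10 kb, RefSeq starts, percentile ranks, overlap limits of 100 and 1000 bp, and other motif windows. Python 3.11.15 with pandas 2.3.3, scipy 1.17.1 and pysam 0.24.0 was used, and the code for overlaps and motifs was tested on simulated data, with 200 of 200 planted overlaps and 300 of 300 motif windows recovered.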

Additional observations from a re-analysis of the deposited data

Results flagged for a closer look

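At the 2 bZIP sites found in all 4 lists, the score moved in opposite directions between the genotypes. The Atf5 score without leucine was 1.94 times that with leucine in WT and 0.899 times in GCN2 KO MEFs. The Creb3l1 site behaved alike, with ratios of 3.61 in WT and 0.87 in GCN2 KO. The difference was not tested, since each condition had 1 library. The direction depends on the score, which is not normalized between lists. By rank from the top it was the other way round, with Atf5 at 4 (+Leu) and 9 (-Leu) in WT and at 7 and 5 in GCN2 KO, and Creb3l1 at 19 and 23 in WT and at 5 and 2 in GCN2 KO. The lists differ in length, so ranks are not comparable on their own either.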

How the results depend on the processing

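Of 81 recomputed values, 63 were counted as within 1.5 times of the reported value and in the same direction, and 17 moved further. The 1 value counted as changing direction was the Atf5 ratio in WT MEFs, which was 0.999 by percentile rank. The Atf5 ratio in GCN2 KO MEFs was counted as unchanged at a rounded 1.0. Its score ratio was 0.899, whereas its percentile rose from 99.8 to 99.9, so its direction differed too. The median WT ratio by percentile rank was 1.01. With a TSS limit of 1 kb the genes with a peak fell to 5 (+Leu) and 6 (-Leu) in WT and to 2 (+Leu) and 1 (-Leu) in GCN2 KO MEFs. With scores of 30 or more GCN2 KO MEFs had 3 (+Leu) and 1 (-Leu) within 5 kb, and 7 and 8 at any distance. In GCN2 KO -Leu the peaks within 5 kb of Cebpg (20), Mafg (23), Mafk (16) and Atf6b (18) were below 30. With the 2672 strongest peaks, 13 genes had a peak at any distance in WT -Leu. The share of all genes under these limits is not given here. Whether bZIP genes still exceeded all genes under them therefore cannot be read from these counts. Of the common GCN2 KO peaks, 1 lay within 5 kb. Counts of peaks with TGATGCAA stayed within 1.5 times under every alternative run. No paired analysis was possible because each condition had 1 library. Depth is unknown and limits every comparison of scores and counts between lists; an unlisted site is one below the peak caller's threshold, not one shown to be unbound.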

Other observations

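The copy of GCAA after 6 bases was present in each list separately. In WT MEFs it followed 16 of 133 motifs with leucine (12%, 7.54 to 18.6) and 41 of 453 without it (9.05%, 6.74 to 12). In GCN2 KO MEFs it followed 7 of 39 with leucine (17.9%, 8.98 to 32.7) and 5 of 30 without it (16.7%, 7.34 to 33.6). The lists share sites, so these shares are not independent of each other, and their intervals overlap.

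The RefSeq promoters of 3 of the 40 matched bZIP genes (Creb5, Maff and Hlf, 7.5%) held TGACGTCA, beside 2.03% of 27025 genes. None of these 3 genes had an ATF4 peak within 5 kb in any list. Only 16 of all 50 bZIP genes had such a peak, so its absence at 3 cannot be read as a lack. TTGCGCAA was in none of the 40 and in 0.207% of all. That these letters are absent from a window says nothing about binding by the factors.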
